A study of Mus musculus with 6 samples.

Results

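The proteasome genes described here are those whose mouse symbol has the form Psma, Psmb, Psmc, Psmd, Psme, Psmf or Psmg followed by a number. Membership follows from the symbol and uses no measured value, and 48 of the 55951 genes in the deposited expression table qualified, each with a single row. RNA came from the spleens of C57BL/6 mice of genotype S100A4-EGFP in which asthma was induced with ovalbumin, and the cells were otherwise untreated. In these mice the green protein EGFP follows the gene S100a4, which encodes a small calcium-binding protein. Effector-memory CD8+ T cells were sorted as CD3+ CD8+ CD4- CD44+ CD62L- and divided by EGFP, so that by their labels both groups share strain, reporter, disease model and gate and are set apart by EGFP. The EGFP-negative cells are called S100A4-negative and the EGFP-positive cells S100A4-positive. Each group had 3 libraries, and the labels do not say whether they came from separate animals or from pools, so p-values measure the spread between these libraries, which may be technical.

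The proteasome is the barrel-shaped protease that destroys proteins marked with ubiquitin. Its 20S core is built from rings of alpha and beta subunits, of which 3 beta subunits cut: β1 (Psmb6), β2 (Psmb7) and β5 (Psmb5). Lymphocytes, antigen-presenting cells and cells exposed to interferon gamma can build the immunoproteasome instead, in which β1i (Psmb9), β2i (Psmb10) and β5i (Psmb8) take those places and favour the peptides that MHC class I molecules present. Caps open the core: the 19S particle with its ATPases, base and lid, the PA28 rings and PA200. T cells depend on the proteasome for NF-κB activation and for the protein turnover of rapid division, and macrophages and dendritic cells use it in antigen presentation.

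Across the libraries the proteasome genes were abundant and most of them differed little between the groups on the deposited scale, which is FPKM, fragments scaled by transcript length and library depth. Of the 48, 46 had a mean of at least 1 FPKM over the 6 libraries and were tested, with means from 1.51 to 240.8 FPKM and a median of 75.0, and 39 of them were above 20. In limma's test on log2(FPKM + 1) across all 13241 genes that passed the same filter, 7 proteasome genes were called higher and 6 lower in S100A4-positive libraries at an adjusted p under 0.05, and 33 were not called. That is 28.3% of the tested members, against 62.3% of all tested genes (19.0% higher and 43.4% lower). The log2 difference (positive minus negative) was within 0.25 of 0 for 25 of the 46, or 54.3%, against 19.7% of all tested genes, and reached 1 in either direction for 1 member against 29.5% of all. In 18 members the groups did not overlap, 8 with the S100A4-positive libraries above and 10 with them below, where the background over all tested genes was 70.0% (20.9% above and 49.1% below).

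Directions depended on the scaling. On the deposited scale the median over all tested genes was -0.36 (log2), and that of the proteasome genes was 0.06, or 0.41 relative to all genes. Median-of-ratios rescaling, which sets the typical gene to no change, moved the median of all genes by 0.34, and then 31 proteasome genes were called higher and 1 lower (background 52.0%, with 27.7% higher and 24.3% lower). Limma voom with the authors' size factors also gave 31 and 1 (background 51.9%, with 28.1% and 23.8%). Quantile normalization gave 9 and 2. Most of all tested genes were called with it, more of them lower than higher. The shares called higher and called lower were both smaller among the proteasome genes than among all tested genes. Under FPKM as deposited and these 3 alternatives alike, Psmb5, Psmb6, Psmb10, Psmc1, Psmd8 and Psmd10 were called higher and Psmg2 lower. A further 24 members that were not called on the deposited scale were called higher after median-of-ratios rescaling, and 5 that were called lower (Psmd5, Psme3, Psmf1, Psmg1 and Psmg3) were then not called. The authors' deposited table calls 10 of the 48, 9 higher and 1 lower, where the background over its 28627 genes with a p-value was 18.9% (11.6% higher and 7.35% lower).

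The libraries held 14925260 to 18660188 reads, recovered from the deposited values, and the tested proteasome genes rested on at least 18 reads in every library. The marker lists went against the sort in the same libraries. All 16 T cell markers were called lower in S100A4-positive libraries, where their summed level was 476 to 686 FPKM against 3132 to 3737. All 17 tested monocyte and macrophage markers of 18 were called higher, at 8036.5 to 9152 summed FPKM against 639 to 868. Of the other lists, 7 of 8 dendritic cell markers rose, 8 of 9 B cell markers fell (4 after median-of-ratios rescaling), 9 of 9 neutrophil markers fell (8), 6 of 7 plasma cell markers fell (4) and 1 rose, and 0 of 5 tested erythroid markers were called. Summed B cell markers were at 7197 to 12620 FPKM in S100A4-negative and 1575 to 1605 in S100A4-positive libraries. Neutrophil markers were at 3253 to 4812 and 407 to 1690, and plasma cell markers at 1198 to 2670 and 318 to 616. Dendritic cell markers were at 48.0 to 84.5 and 360 to 513. The S100A4-negative libraries thus also held markers of other cell types at high levels. No marker was at 0 in every library of a group. In bulk RNA, fewer cells of a type and less RNA per cell cannot be told apart, and the part of these other cells in the proteasome results was not tested. S100a4 itself was at 0 to 0.405 FPKM in S100A4-negative and 1.27 to 4.02 in S100A4-positive libraries, from 0 to 3 and 9 to 25 reads. A same-strand gene, Gm42674, covers 51.7% of the S100a4 exons in the annotation and had a mean of 0 FPKM. How reads in that overlap were counted is not given, so the S100a4 values may leave some out, which was not tested.

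Constitutive catalytic subunits were higher in S100A4-positive libraries for 2 of 3 genes, and 1 of the 3 immunoproteasome subunits was higher, where 19.0% of all tested genes were. The difference between these counts was not tested. Psmb5, which encodes the chymotrypsin-like subunit β5, was at 22.2, 25.5 and 24.3 FPKM in S100A4-negative and 37.9, 34.1 and 40.0 in S100A4-positive libraries. Each S100A4-positive library was above each S100A4-negative one, and the means of 24.0 ± 1.66 and 37.3 ± 3.002 (SD, n = 3) correspond to a rise of 0.62 on the log2 scale (SE 0.12, limma adjusted p = 0.00337). Psmb6, the caspase-like subunit β1, was at 81.8, 110.6 and 109.3 FPKM against 138, 182 and 193, again without overlap. It rose by 0.76 (SE 0.18, limma adjusted p = 0.00830), and the calls of Psmb5 and Psmb6 held in each fit that left out 1 library. Psmb7, the trypsin-like subunit β2, was at 14.5, 22.7 and 23.1 FPKM against 20.2, 29.5 and 29.1. The S100A4-positive replicate 1 lay below 2 of the S100A4-negative libraries, and the difference of 0.38 (SE 0.22) did not pass (limma adjusted p = 0.171). The authors' deposited table called Psmb7 higher (log2 fold change 0.78, adjusted p = 0.0363), and so did median-of-ratios rescaling (0.75, limma adjusted p = 0.0271). After that rescaling 3 of 3 constitutive and 1 of 3 immunoproteasome genes were higher (background 27.7%). In the annotation 11.8% of the exon bases of Psmb7 also belong to Nek6 on the other strand, which had a mean of 12.7 FPKM, so reads there cannot be assigned to either gene without knowing how strand was counted.

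**Figure D1:**
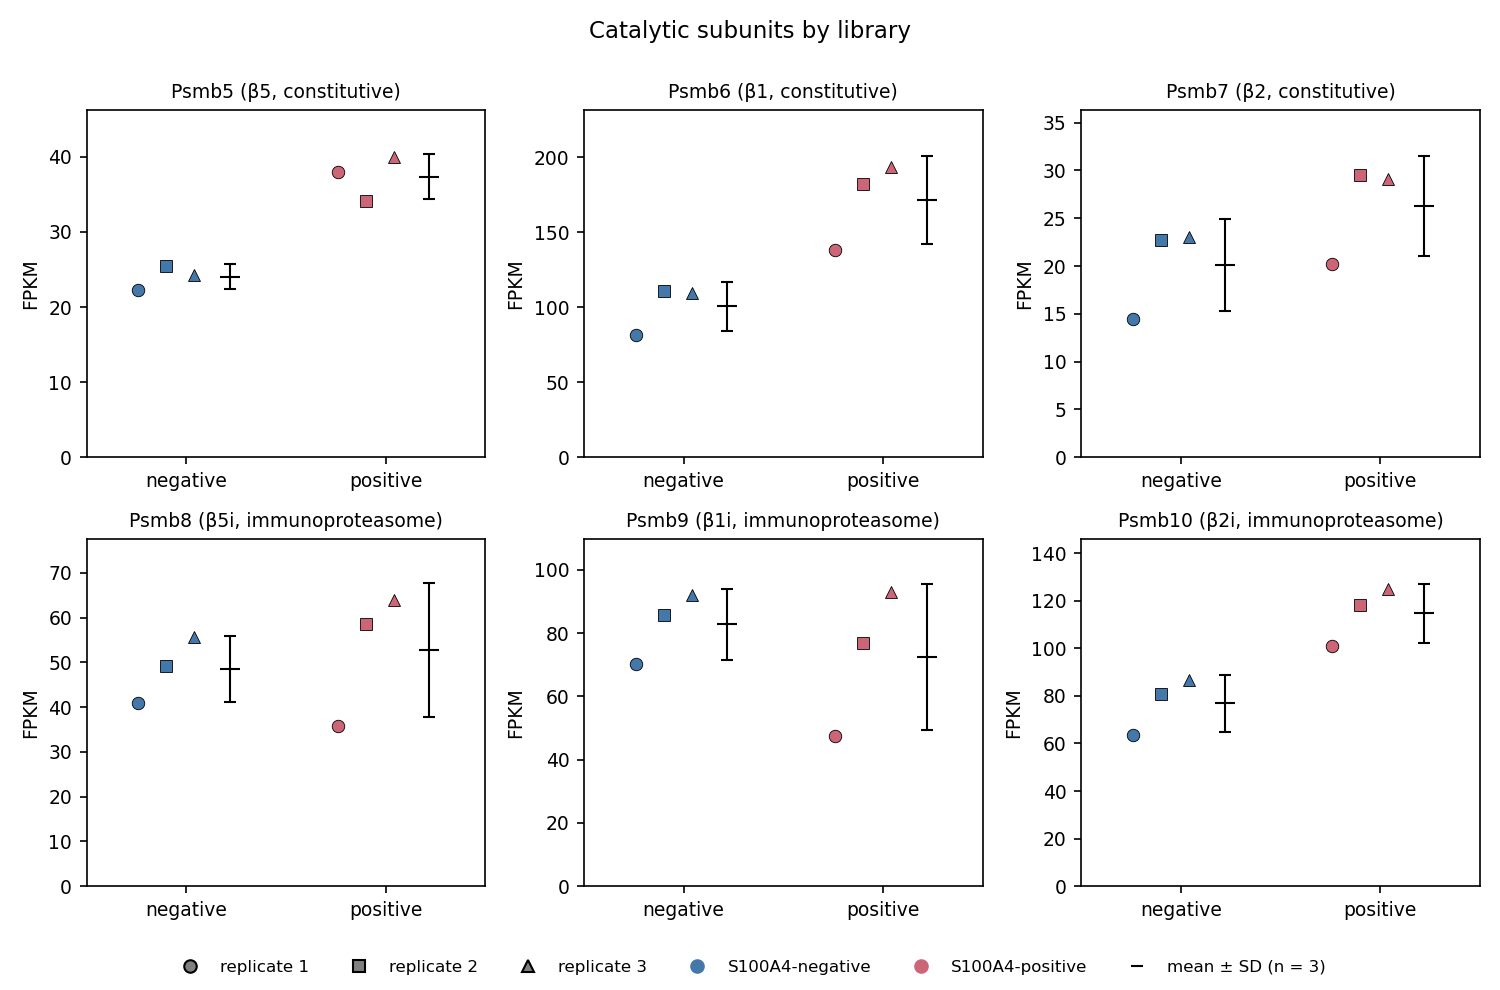
Level of each catalytic subunit gene in every library, in FPKM on linear axes from 0, with S100A4-negative libraries in blue, S100A4-positive in red, a marker shape for each replicate number and the mean ± SD (n = 3) in black. Psmb5, Psmb6 and Psmb10 show no overlap between the groups, while Psmb7, Psmb8 and Psmb9 overlap and have their lowest library in replicate 1 of each group.

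Of the immunoproteasome genes, Psmb10, which encodes β2i, was at 63.5, 80.6 and 86.6 FPKM in S100A4-negative and 101, 118 and 125 in S100A4-positive libraries. The groups did not overlap, and it rose by 0.58 (SE 0.15, limma adjusted p = 0.0135). Psmb8, encoding β5i, was at 40.8, 49.1 and 55.6 FPKM against 35.8, 58.5 and 63.8. The S100A4-positive libraries held both the lowest and the highest values, and the difference of 0.09 (SE 0.23) did not pass (limma adjusted p = 0.759). Psmb9, encoding β1i, was at 70.4, 85.8 and 92.2 FPKM against 47.4, 76.9 and 93.0. Its difference of -0.23 (SE 0.25, limma adjusted p = 0.426) was smaller than its SE and did not pass, and S100A4-positive replicate 1 was far below the other 5 libraries. After median-of-ratios rescaling the difference of Psmb9 was 0.15 (limma adjusted p = 0.640) and that of Psmb8 0.47 (0.131), so neither was called on either scale.

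The question put to these genes was whether the immunoproteasome subunits moved with the constitutive subunits they replace. A ratio taken within a library does not depend on a scale factor for that library. Psmb9 over Psmb6 was 0.860, 0.776 and 0.844 in S100A4-negative and 0.344, 0.422 and 0.481 in S100A4-positive libraries. The groups were far apart, and the ratio was 2.01-fold lower in S100A4-positive libraries, a difference of -1.005 on the log2 scale (SE 0.15, exact two-sided permutation p = 0.1, n = 3 per group). Psmb8 over Psmb5 was 1.84, 1.93 and 2.29 against 0.943, 1.72 and 1.596, without overlap. This ratio differed by -0.55 (SE 0.29, exact two-sided permutation p = 0.1), and by -0.28 without S100A4-positive replicate 1. Psmb10 over Psmb7 was 4.37, 3.56 and 3.75 against 4.997, 4.004 and 4.29. The groups overlapped, with a difference of 0.19 (SE 0.13, exact two-sided permutation p = 0.3), the opposite direction to the other pairs. Adjusted over the 3 pairs the p-values were 0.15, 0.15 and 0.3, and 0.1 is the smallest that 3 against 3 libraries can give, so this test could not reach 0.05.

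**Figure D2:**
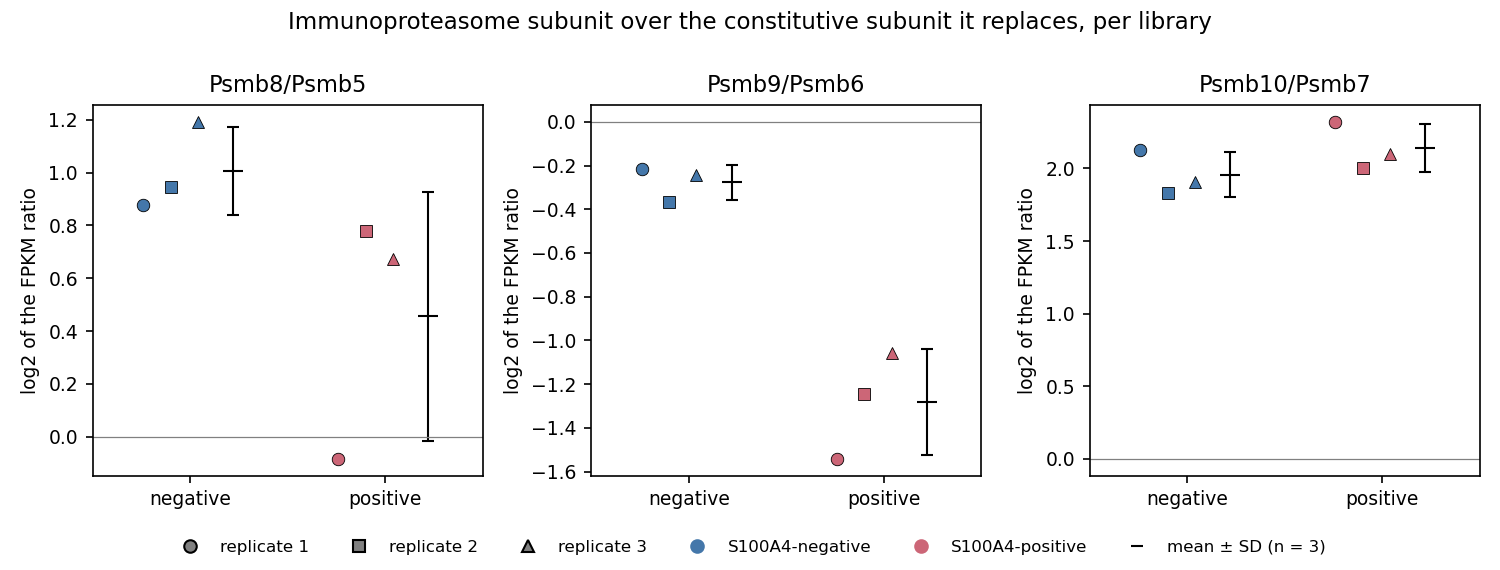
Base-2 logarithm of the ratio of each immunoproteasome subunit to its constitutive counterpart within a library, by group, with the mean ± SD (n = 3) in black and a grey line at 0, where both genes are at the same FPKM. For Psmb9/Psmb6 all S100A4-positive libraries lie below all S100A4-negative ones with a difference of -1.005, for Psmb8/Psmb5 they also lie below, and for Psmb10/Psmb7 the groups overlap.

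Summed over the 6 catalytic genes, the immunoproteasome subunits made up 59.6%, 57.6% and 59.9% of the FPKM in S100A4-negative and 48.4%, 50.8% and 51.8% in S100A4-positive libraries. The means were 59.0% ± 1.27 and 50.3% ± 1.72 (SD, n = 3), 8.72 percentage points apart. The summed constitutive level went from 119 to 159 FPKM in S100A4-negative to 196 to 263 in S100A4-positive libraries, and the ranges did not overlap. The summed immunoproteasome level was 175 to 234 and 184 to 282 FPKM, and the ranges overlapped. Psmb6 gives the largest part of the constitutive sum in every library, so the share follows it closely. T cell, B cell, neutrophil and plasma cell markers were mostly lower in the S100A4-positive libraries, and macrophage and dendritic cell markers mostly higher, as given above. The part of these cells in these ratios was not tested.

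Of the catalytic genes, Psmb8 and Psmb9 lie on either side of Tap1 in the MHC region of chromosome 17 (build GRCm38), at 34197721 to 34201454 on the + strand and 34181987 to 34187764 on the - strand. Tap1, a chain of the transporter that carries the peptides into the endoplasmic reticulum, starts 211 bases from the start of Psmb9 on the opposite strand, and 5.8% of the exon bases of Psmb9 also belong to Tap1. Psmb10 is on chromosome 8, 105935735 to 105938444 (-), Psmb5 on chromosome 14, 54614119 to 54618022 (-), Psmb6 on chromosome 11, 70525367 to 70527858 (+), and Psmb7 on chromosome 2, 38588036 to 38644087 (-). Tap1 was at 127, 127 and 133 FPKM in S100A4-negative and 97.9, 133 and 137 in S100A4-positive libraries. The S100A4-positive replicate 1 was the lowest for it, as for Psmb8 and Psmb9, and the difference of -0.09 did not pass (limma adjusted p = 0.618).

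The promoters of the β1 and β5 pairs are shown because the 2 ratios that did not overlap between the groups belong to them. RefSeq promoters (GRCm38.p6, 250 bases before to 50 after the start, 5′ to 3′ on the gene's strand) were matched for 40 of the 48 genes, and not for Psma8, Psmb1, Psmb2, Psmb7, Psmc3, Psmd3, Psmd7 and Psmg2. Capitals mark matches, on either strand, to the core of the antioxidant response element (TGACNNNGC), which the transcription factors NFE2L1 and NFE2L2 bind, to the gamma-activated site (TTCNNNGAA), or to a doublet of the interferon-stimulated response element (GAAA, then NN, then GAAA).
Psmb5, chr14:54617946-54618245, - strand: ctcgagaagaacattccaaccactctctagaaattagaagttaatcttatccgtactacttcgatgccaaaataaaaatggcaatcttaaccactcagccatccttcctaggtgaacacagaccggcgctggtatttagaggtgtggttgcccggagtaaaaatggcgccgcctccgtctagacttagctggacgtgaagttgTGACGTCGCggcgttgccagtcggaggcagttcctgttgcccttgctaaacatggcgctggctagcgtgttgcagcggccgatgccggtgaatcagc
Psmb6, chr11:70525107-70525406, + strand: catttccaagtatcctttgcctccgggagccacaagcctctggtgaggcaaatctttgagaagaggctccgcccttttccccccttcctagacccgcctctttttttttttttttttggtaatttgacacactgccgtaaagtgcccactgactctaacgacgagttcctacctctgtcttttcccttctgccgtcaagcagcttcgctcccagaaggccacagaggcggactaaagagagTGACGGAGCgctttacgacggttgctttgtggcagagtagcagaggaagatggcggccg
Psmb8, chr17:34197945-34198244, + strand: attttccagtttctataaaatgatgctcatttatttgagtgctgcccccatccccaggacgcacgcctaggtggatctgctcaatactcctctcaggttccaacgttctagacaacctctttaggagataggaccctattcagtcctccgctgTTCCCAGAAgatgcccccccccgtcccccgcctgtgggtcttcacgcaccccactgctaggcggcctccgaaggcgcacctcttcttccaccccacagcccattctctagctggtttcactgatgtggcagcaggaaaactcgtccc
Psmb9, chr17:34187281-34187580, - strand: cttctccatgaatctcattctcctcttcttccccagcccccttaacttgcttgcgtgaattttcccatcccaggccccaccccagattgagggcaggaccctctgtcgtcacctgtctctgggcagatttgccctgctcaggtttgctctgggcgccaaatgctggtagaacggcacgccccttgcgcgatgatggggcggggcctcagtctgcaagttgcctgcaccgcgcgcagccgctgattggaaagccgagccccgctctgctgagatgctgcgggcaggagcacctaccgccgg

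Psmb5 and Psmb6, the called constitutive genes, each hold 1 match to the antioxidant core, TGACGTCGC beginning 47 bases and TGACGGAGC beginning 9 bases before the start. The immunoproteasome genes Psmb8, Psmb9 and Psmb10 hold none in this window. In all, 6 of the 40 matched genes hold it, a share near the 14.0% of the 27025 genes with a promoter. Psmc6, Psmd9, Psmd12 and Psme4, the other holders, were not called on the deposited scale. The other members called higher there, Psmb10, Psmc1, Psmd8, Psmd10 and Psme2, hold none. Psmb8 holds 1 gamma-activated match, TTCCCAGAA, 97 bases before the start, and 3 of 40 genes hold one (background 9.55%). The doublet was found in 5 of 40, Psmb3, Psmd4, Psmd9, Psme1 and Psmg4 (background 3.99%). These distances count from the RefSeq starts, which for Psmb5, Psmb8, Psmb9 and Psmb10 lie inside the GENCODE gene spans given above. The match of Psmb8 therefore lies within its GENCODE span. A match describes the letters only and is not shown to be a bound site.

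The thymoproteasome subunit Psmb11, which belongs to the thymic cortex, was at 0 to 1 read in each library and was not tested.

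The alpha ring, the gate of the core, and the structural beta subunits had 0 of 11 tested members called on the deposited scale (background 62.3%). The median log2 fold change was 0.20 for the 7 tested alpha genes and 0.17 for the 4 structural beta genes. Relative to all genes these were 0.55 and 0.53, and 7 and 3 members were called higher after median-of-ratios rescaling (background 27.7%). Psma5 was at 39.2, 45.9 and 58.5 FPKM in S100A4-negative and 51.8, 69.2 and 73.6 in S100A4-positive libraries. It had the highest fold change of the ring, 0.43 (SE 0.19), with overlapping groups and a limma adjusted p of 0.0818, and it was called without S100A4-positive replicate 1 or S100A4-negative replicate 3. Psma4 had the lowest, 0.07 (SE 0.10), at 92.1, 93.6 and 99.3 FPKM against 95.8, 103 and 100.2. Psma1, Psma2, Psma3, Psma6 and Psma7 lay between them. Psma8, the alpha subunit of the testis proteasome, was below the filter, at 0, 0.214 and 0.153 FPKM against 0.450, 0.766 and 0.384, from 0 to 12 reads.

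Among the structural beta genes, Psmb2 was at 89.4, 90.5 and 104.6 FPKM in S100A4-negative and 106, 131 and 119 in S100A4-positive libraries. The groups did not overlap, and the difference of 0.32 (SE 0.13) did not pass on the deposited scale (limma adjusted p = 0.0607). Of the fits without 1 library, Psmb2 was called only in the one without S100A4-positive replicate 1 (0.0303). It was called higher after median-of-ratios rescaling (0.70, limma adjusted p = 0.00347), with the authors' size factors and with quantile normalization. Psmb1 was at 68.0, 80.6 and 77.6 FPKM against 51.8, 72.2 and 73.2, with a difference of -0.21 (SE 0.16, limma adjusted p = 0.286) that was 0.17 after median-of-ratios rescaling. Psmb3 and Psmb4 had differences of 0.09 and 0.25, neither called on the deposited scale. Psmb4 was the most abundant 20S gene, at 182 ± 29.1 and 217 ± 44.1 FPKM, while Psmb7 and Psmb5 were the lowest tested ones at overall means of 23.2 and 30.7.

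**Figure D3:**
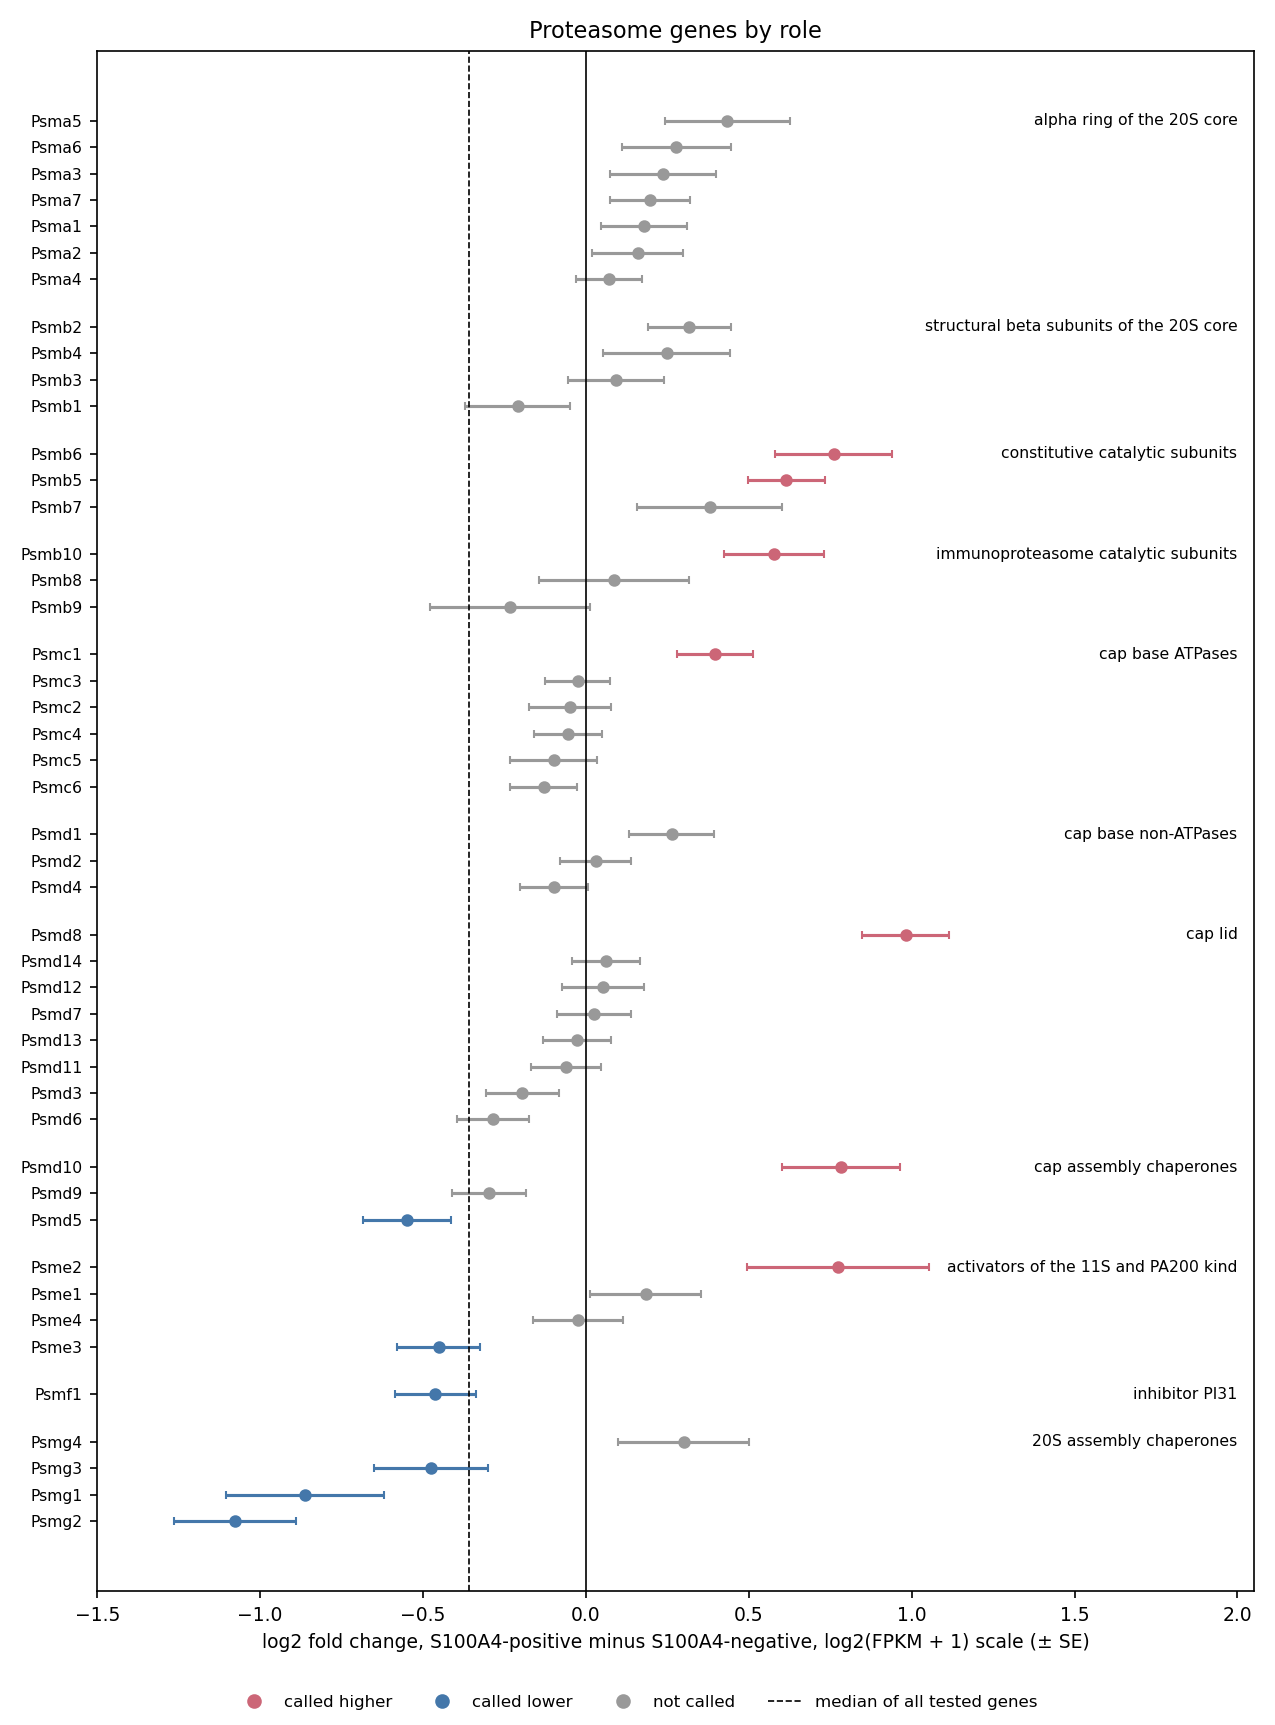
Log2 fold change (x axis, log2(FPKM + 1) scale, positive minus negative libraries) of the 46 tested genes (y axis) with its standard error, grouped by role. The solid line is no change and the dashed line the median of all tested genes, -0.36; 7 genes are called higher (red), 6 lower (blue) and 33 not (grey), and the alpha and structural beta genes lie on the grey part right of the dashed line.

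The 20S genes shared a pattern across libraries that the groups do not describe. Of the 17 tested 20S genes, 16 had their lowest S100A4-negative value in replicate 1, and 16 had their lowest S100A4-positive value in replicate 1. The median deviation of the 20S genes from the group mean was -0.20 in S100A4-negative and -0.25 in S100A4-positive replicate 1, on the log2(FPKM + 1) scale, where that of all tested genes was -0.02 and 0.04. The exceptions were Psma7 among the S100A4-negative and Psmb5 among the S100A4-positive libraries. Of all 46 tested members, 35 were lowest in replicate 1 of the S100A4-negative and 31 of the S100A4-positive group. These counts include the 20S genes but exceed their number, so some members outside the core were also lowest in replicate 1. The share over all tested genes was not counted, so how particular the pattern is to the 20S genes was not tested. With both libraries numbered 1 left out, a choice made after seeing the data, 7 proteasome genes were called higher and 5 lower. In that fit most of all tested genes were called, more of them lower than higher. The shares called higher and called lower were both smaller among the proteasome genes than among all tested genes. Psmb9/Psmb6 and Psmb8/Psmb5 then differed by -0.85 and -0.34 on the log2 scale. The labels tie no batch or animal to the numbers.

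**Figure D4:**
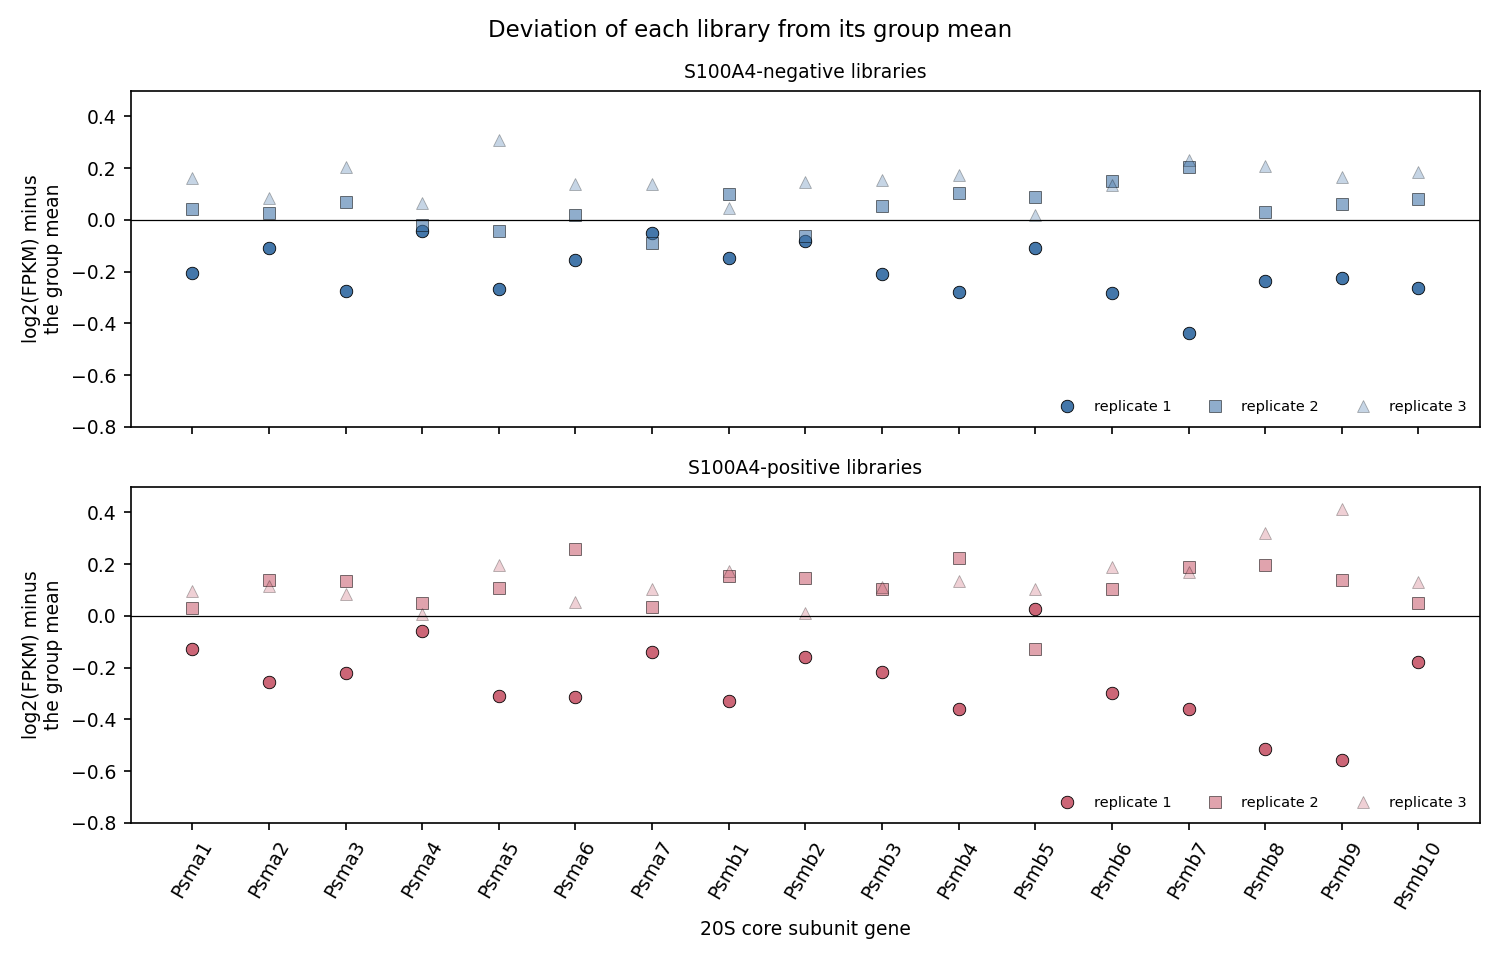
Deviation of log2(FPKM) from the group mean for each of the 17 tested 20S core genes, by library, with S100A4-negative libraries above and S100A4-positive below and a marker shape for each replicate number. Circles, replicate 1, are the lowest for 16 of 17 genes in each group.

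In the 19S cap most members differed little on the deposited scale and single genes stood out. After median-of-ratios rescaling 13 of the 20 Psmc and Psmd genes were called higher (background 27.7%). Of the 6 ATPases that unfold substrates, 3 were called higher after that rescaling. On the deposited scale 1 was called, where 62.3% of all tested genes were. It was Psmc1, at 108, 120.1 and 131 FPKM in S100A4-negative and 162, 151 and 159 in S100A4-positive libraries. It rose by 0.40 (SE 0.12, limma adjusted p = 0.0199), without overlap, but lost the call without S100A4-negative replicate 1 or 2 or S100A4-positive replicate 3 (limma adjusted p of up to 0.0625). Psmc6 had the lowest value, at 84.3, 80.5 and 91.7 FPKM against 76.7, 79.3 and 77.9. The groups did not overlap, and its difference of -0.13 (SE 0.10) did not pass (limma adjusted p = 0.302). Psmc3 was the most even on the deposited scale, at 119.8 ± 2.27 and 118 ± 2.80 FPKM, a difference of -0.03. After median-of-ratios rescaling Psmc3 was called higher (0.36, limma adjusted p = 0.0168). Psmc2, Psmc4 and Psmc5 differed by -0.05, -0.06 and -0.10, none of them called on the deposited scale.

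The non-ATPase base subunits, which receive ubiquitin and shuttle factors, had 0 of 3 called on the deposited scale (background 62.3%). After median-of-ratios rescaling 3 of 3 were called higher (background 27.7%). Psmd1 was at 55.4, 45.2 and 55.2 FPKM in S100A4-negative and 68.1, 56.3 and 63.0 in S100A4-positive libraries, without overlap, and the difference of 0.26 (SE 0.13) did not pass (limma adjusted p = 0.117). Psmd4, the ubiquitin receptor, was at 88.6, 93.8 and 93.0 FPKM against 84.5, 81.4 and 91.4, and its difference of -0.10 (SE 0.10) did not pass (limma adjusted p = 0.429). Psmd2 had a difference of 0.03.

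Of the 8 lid genes, 6 were called higher after median-of-ratios rescaling (background 27.7%). On the deposited scale Psmd8 alone was called, where 62.3% of all tested genes were. It was at 107, 122 and 112 FPKM in S100A4-negative and 257, 197 and 224 in S100A4-positive libraries, from 2094 to 5006 reads. The S100A4-positive libraries were far above the others, and Psmd8 rose by 0.98 (SE 0.13, limma adjusted p = 7.66e-04), the largest rise of all 46 tested members; the call held in each fit without 1 library. Psmd6 had the lowest value of the lid, at 75.1, 78.4 and 88.5 FPKM against 64.3, 64.4 and 68.8. Its groups did not overlap, and the difference of -0.29 (SE 0.11) did not pass (limma adjusted p = 0.0548) and was 0.10 after median-of-ratios rescaling. Psmd14, the deubiquitinase that removes ubiquitin chains, was at 80.2 ± 4.49 and 83.7 ± 3.67 FPKM and was not called on the deposited scale. Psmd3, Psmd7, Psmd11, Psmd12 and Psmd13 had differences from -0.20 to 0.05, none called on the deposited scale. Sem1, the smallest lid protein, whose symbol is outside the pattern, was at 18.3, 26.9 and 27.4 FPKM against 36.9, 48.0 and 48.7. It rose by 0.87 (SE 0.19, limma adjusted p = 0.00620), without overlap.

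The chaperones that assemble the 19S base divided. Psmd10, also called gankyrin, was at 7.56, 6.38 and 7.87 FPKM in S100A4-negative and 10.5, 16.3 and 13.4 in S100A4-positive libraries. It rose by 0.78 (SE 0.18, limma adjusted p = 0.00757), without overlap and in each fit without 1 library. Psmd5 was at 15.2, 15.0 and 15.9 FPKM against 10.4, 8.78 and 11.46 and fell by 0.55 (SE 0.14, limma adjusted p = 0.00994). After median-of-ratios rescaling its difference of -0.19 did not pass (limma adjusted p = 0.203). Psmd9 was at 19.8 ± 0.922 and 15.9 ± 0.900 FPKM, without overlap, and did not pass (limma adjusted p = 0.0529). In the annotation 25.5% of its exon bases are shared with the antisense gene Gm26745.

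The chaperones of the 20S core held the largest falls among the tested members, with 3 of 4 lower, where 43.4% of all tested genes were lower. After median-of-ratios rescaling 1 of 4 was lower (background 24.3%). Psmg1 and Psmg2 form the dimer that starts the alpha ring. Psmg2 was at 10.6, 16.0 and 16.4 FPKM in S100A4-negative and 5.56, 6.37 and 6.58 in S100A4-positive libraries and fell by 1.08 (SE 0.19, limma adjusted p = 0.00219). The groups did not overlap, and Psmg2 was called lower in each fit without 1 library and after median-of-ratios rescaling (-0.73, limma adjusted p = 0.0126). Psmg1 was at 8.16, 13.5 and 14.1 FPKM against 4.87, 5.53 and 7.69 and fell by 0.86 (SE 0.24, limma adjusted p = 0.0168). Its groups did not overlap, but the call was lost without S100A4-positive replicate 2 or S100A4-negative replicate 2 or 3 (up to 0.0611) and after median-of-ratios rescaling (0.0991). Psmg3 fell by 0.47 (limma adjusted p = 0.0456) at 1.58, 1.97 and 2.20 FPKM against 1.32, 0.901 and 1.08, from 18 to 55 reads. It lost the call without replicate 2 or 3 of either group (up to 0.129). Psmg4, the partner of Psmg3, was at 17.2, 19.6 and 24.0 FPKM against 19.1, 30.7 and 26.3, and its difference of 0.30 (SE 0.20) did not pass (limma adjusted p = 0.225).

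Pomp, which encodes the maturation protein that brings the catalytic beta subunits into the forming core, was called higher. It was at 34.9, 43.7 and 49.3 FPKM in S100A4-negative and 61.2, 81.5 and 86.5 in S100A4-positive libraries. It rose by 0.83 (SE 0.18, limma adjusted p = 0.00607), without overlap, as did Psmb5 and Psmb6 with 0.62 and 0.76. Psmf1, the inhibitor PI31, was at 21.9, 20.1 and 21.3 FPKM against 14.3, 17.0 and 13.9. It fell by 0.46 (SE 0.12, limma adjusted p = 0.0144), without overlap, but not without S100A4-positive replicate 3 (0.0534) nor after median-of-ratios rescaling (-0.09, limma adjusted p = 0.567).

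On the deposited scale the activators differed among themselves, with 1 of 4 called higher and 1 lower (background 19.0% and 43.4%). After median-of-ratios rescaling 3 of 4 were called higher and 0 lower (background 27.7% and 24.3%). PA28α (Psme1) and PA28β (Psme2) form the ring that interferon gamma induces and that opens the core for antigen processing, while PA28γ (Psme3) forms a nuclear ring. Psme2 was at 112, 169 and 172 FPKM in S100A4-negative and 169, 308 and 313 in S100A4-positive libraries. S100A4-positive replicate 1 was at the level of S100A4-negative replicates 2 and 3, so the groups overlapped, and Psme2 rose by 0.77 (SE 0.28, limma adjusted p = 0.0428). Of the fits without 1 library, it was called only in the one without S100A4-positive replicate 1, and without the others the limma adjusted p was up to 0.133. Psme2b, a gene with 99.4% identity to Psme2 over 794 bases, had a mean of 0.128 FPKM, and reads could be divided between them. Psme1 was at 202, 228 and 243 FPKM against 201, 279.8 and 291. The difference of 0.18 (SE 0.17) did not pass on the deposited scale (limma adjusted p = 0.371). Of the fits without 1 library, Psme1 was called only in the one without S100A4-positive replicate 1 (0.0475). It was called higher after median-of-ratios rescaling (0.57, limma adjusted p = 0.0296). Psme2 over Psme1 was 0.555, 0.739 and 0.709 in S100A4-negative and 0.841, 1.101 and 1.08 in S100A4-positive libraries, so the β chain was above the α chain in 2 S100A4-positive libraries only.

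Psme3 was at 183, 159 and 197 FPKM in S100A4-negative and 144, 123 and 126 in S100A4-positive libraries. The groups did not overlap, and it fell by 0.45 (SE 0.13, limma adjusted p = 0.0179). The call was lost without S100A4-positive replicate 2 or 3 or S100A4-negative replicate 3 (up to 0.0680), and after median-of-ratios rescaling the difference was -0.07 (limma adjusted p = 0.639). Psme4, which encodes PA200, was at 66.6, 53.4 and 63.4 FPKM against 68.0, 53.8 and 58.4, a difference of -0.03 (SE 0.14, limma adjusted p = 0.884). After median-of-ratios rescaling Psme4 was called higher (0.36, limma adjusted p = 0.0454). Replicate 1 was the highest for Psme4 in each group, unlike for the 20S genes.

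**Figure D5:**
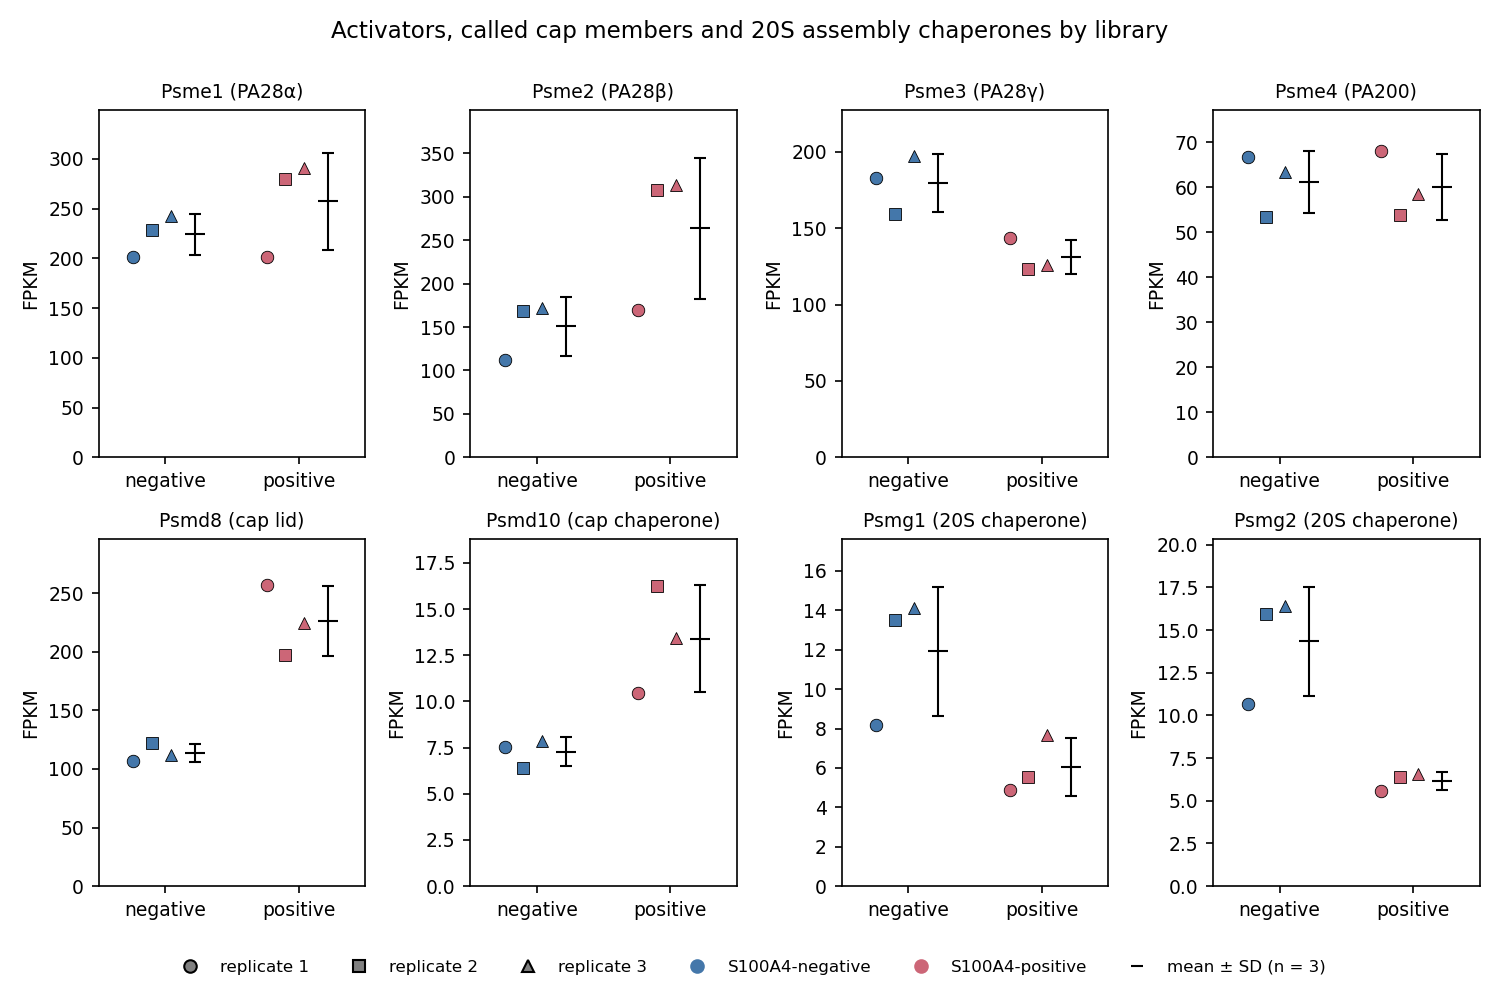
FPKM in every library of the 4 activator genes and of Psmd8, Psmd10, Psmg1 and Psmg2, with linear axes from 0, a marker shape for each replicate number and the mean ± SD (n = 3) in black. Psmd8 and Psmd10 are higher and Psmg1, Psmg2 and Psme3 lower in S100A4-positive libraries without overlap, while S100A4-positive replicate 1 of Psme2 (169) lies beside S100A4-negative replicates 2 and 3.

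Other genes of the pathway were read from fixed lists. Of 13 tested proteasome-associated genes outside the symbol pattern, 2 were higher and 3 lower (background 19.0% and 43.4%), with a median of -0.07 on the log2 scale. Sem1 and Pomp rose, as given above, and Ubqln4, a ubiquitin shuttle, and Uchl5, a deubiquitinase of the 19S particle, fell by 0.67 and 0.59. Akirin2, which brings proteasomes into the nucleus, fell by 0.47 (limma adjusted p = 0.0147). After median-of-ratios rescaling none of these 3 falls was called. Uchl5 also lost its call without replicate 2 of either group, S100A4-positive replicate 1 or S100A4-negative replicate 3 (up to 0.0895), and Akirin2 without S100A4-negative replicate 2 or 3 (up to 0.0538).

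Transcription factors that raise proteasome genes, with their partners, had 5 of 7 members higher and 1 lower (background 19.0% and 43.4%), and a median of 0.88. Nfe2l1, which encodes the factor that restores proteasome genes when the proteasome is inhibited, was at 59.7, 63.8 and 68.8 FPKM in S100A4-negative and 118, 127 and 110.3 in S100A4-positive libraries. It rose by 0.88 (SE 0.11, limma adjusted p = 6.25e-04), without overlap. Nfe2l2, the oxidative stress factor NRF2, rose by 2.45 from 48.1 ± 5.18 to 267 ± 13.7 FPKM. Their small Maf partners Maff and Mafg rose by 2.03 and 1.67, and Mafk by 0.30; of the fits without 1 library, Mafk was called only in the one without S100A4-positive replicate 1 (limma adjusted p of up to 0.102 in the others). Ngly1, the enzyme that removes sugar chains from NFE2L1 on its way to activity, fell by 0.53 (SE 0.11, limma adjusted p = 0.00586), and Ddi2, the protease that cuts it, was not called (-0.23). The fall of Ngly1 was not called after median-of-ratios rescaling (-0.16, limma adjusted p = 0.209).

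Of the 11 interferon regulators of the immunoproteasome, 2 were higher and 4 lower, shares near the background of 19.0% and 43.4%, and their median of -0.35 was near the -0.36 of all tested genes. Ifng, interferon gamma itself, was at 8.17, 6.81 and 4.39 FPKM in S100A4-negative and 0.670, 1.18 and 2.83 in S100A4-positive libraries and fell by 1.596 (SE 0.34, limma adjusted p = 0.00523). Ifngr2, a chain of its receptor, rose by 1.72. Ifngr1, the other chain, fell by 0.55 from 599 ± 74.2 to 407 ± 33.9 FPKM (limma adjusted p = 0.0135). That fall was not called after median-of-ratios rescaling (-0.16, limma adjusted p = 0.402) or without S100A4-positive replicate 2 (0.0522). Irf1, the factor that carries the interferon gamma signal to Psmb9 and Tap1, rose by 1.13 from 151 ± 4.45 to 335 ± 58.9 FPKM. Nlrc5, the activator of MHC class I genes, fell by 0.84 (SE 0.16, limma adjusted p = 0.00297).

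Peptide trimming and transport genes had 2 of 10 higher and 3 lower (background 19.0% and 43.4%), with a median of -0.18. Tapbp, the tapasin that loads MHC class I, rose by 0.65 from 210.4 ± 15.0 to 329.6 ± 23.0 FPKM (limma adjusted p = 0.00307), and Lap3, an aminopeptidase, by 0.48. The peptidase Thop1 and the aminopeptidase Lnpep fell by 0.88 and 0.51. Lap3 lost its call without S100A4-positive replicate 3 or S100A4-negative replicate 1 or 2 (limma adjusted p of up to 0.0826), and Lnpep without S100A4-positive replicate 2 or 3 or S100A4-negative replicate 1 or 3 (up to 0.0676) and after median-of-ratios rescaling (0.466). Of 7 ubiquitin genes and activating enzymes, 3 were lower and 0 higher, the share of lower genes being near the background of 43.4%. Uba7, Uba6 and Uba1 fell by 0.51, 0.41 and 0.31, none of them called after median-of-ratios rescaling, when Uba1 was at 0.08. Leaving out 1 library ended the call of Uba7 except without S100A4-positive replicate 3, of Uba6 except without S100A4-negative replicate 2 and of Uba1 except without S100A4-positive replicate 1 (limma adjusted p of up to 0.0794, 0.123 and 0.0991). Ubb, the polyubiquitin gene, was at 655 ± 146 and 726 ± 76.9 FPKM and was not called.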

How the data were processed

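Poly(A)-selected RNA was sequenced from 6 libraries, 3 per group, grouped by their titles. Expression is FPKM as deposited; per the submitters' processing notes HISAT2 2.1.0, Cufflinks and Cuffnorm were used on mm10, without saying which made which value. The authors' deposited comparison table holds a mean normalized read signal per group, log2 fold changes and p-values; the test is not given in the sources used here. Reads were recovered from FPKM and the authors' group means (all 135018 values above 0 were within 0.05 of a whole read), and counting of overlapping genes and strand is not given in the sources used here.

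Genes with a mean of at least 1 FPKM were tested with limma 3.58.1 (R 4.3.3) on log2(FPKM + 1), letting the prior variance follow the mean, with Benjamini-Hochberg adjustment over 13241 genes. This scale understates changes of low genes. Ratios were compared by exact permutation over libraries, other steps in Python 3.11.15. Annotation is GENCODE M21 (GRCm38, the build mm10 names); near copies were sought with BLAST 2.17.0. In simulated libraries the fit called 41.8% of 67 genes changed 1.5-fold, 98.5% of 67 changed 2-fold and 100% of 66 changed 4-fold. It made 14 false calls among 13241 genes. Far fewer genes changed there than were called here, so these shares need not hold for the data. Alternatives were other pseudocounts, filters, scalings, weights, a replicate block, voom on recovered reads and leaving out libraries. Members and lists were chosen with earlier results of these data known. Named with values in all libraries are the catalytic subunits, activators, inhibitor, Pomp and the highest and lowest member of each role group. Other members were named by choice, and up to 4 called genes were named per pathway list. Akirin2, Ifngr1, Mafk, Ngly1, Ddi2, Ubb and Tap1 were chosen after their values were seen.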

Additional observations from a re-analysis of the deposited data

How the results depend on the processing

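Scaling moved the counts of proteasome genes most. Median-of-ratios rescaling gave 32 proteasome genes called (31 higher, 1 lower) and 3217 of all genes lower, and voom with the authors' size factors, added after seeing the data, 32 (31 and 1) and 3156; quantile normalization gave 2 lower. The replicate block gave 11 higher, 6 lower. Over all tested genes lower calls outnumbered higher calls with quantile normalization, with the replicate block and in each fit without 1 library. In each of these fits most of all tested genes were called, a larger share than among the proteasome genes. The share called lower was also smaller among the proteasome genes in each. Their share called higher was above that of all tested genes with the replicate block and without S100A4-positive replicate 1, and below it in the others. Same-numbered libraries deviated with correlations of 0.38, 0.08 and 0.37 over 13241 genes, not all above 0.1, and the labels tie nothing to the numbers, so they were not taken as pairs, though the values do not show that nothing is shared; permutation within same-numbered pairs gave p = 0.25 for each ratio under this pairing, the smallest possible. Leaving out 1 library gave 8 to 18 proteasome genes called, 5 to 12 higher and 3 to 6 lower; the lowest total was without S100A4-positive replicate 3, and the most higher (12) without S100A4-positive replicate 1. Without 1 library the difference in log2 ratio Psmb8/Psmb5 ranged from -0.71 to -0.28, in log2 ratio Psmb9/Psmb6 from -1.12 to -0.87 and in log2 ratio Psmb10/Psmb7 from 0.10 to 0.27, and the last was 0.02 after quantile normalization. Of 45 genes followed through the settings, 0 called in both changed sign.

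Log2 fold changes that changed sign after median-of-ratios rescaling and with the authors' size factors were those of Psmb9 (0.15 and 0.15), Psme4 (0.36 and 0.36, both called), Psmb1 (0.17 and 0.18), Psmc6 (0.25 and 0.26), Psmd4 (0.28 and 0.29, both called), Psmd6 (0.10 and 0.10) and Uba1 (0.075 and 0.076). Psme4 also changed with quantile normalization (0.086) and without S100A4-positive replicate 2 (0.050) or S100A4-negative replicate 1 (0.04) or 3 (0.0034). Psmb9 changed without S100A4-positive replicate 1 (0.040), and Psmb8 without S100A4-positive replicate 2 (-0.0091) or 3 (-0.070) or S100A4-negative replicate 1 (-0.03). Without 1 library the values of Psmb8 ranged from -0.070 to 0.34, of Psmb9 from -0.44 to 0.040 and of Psme4 from -0.12 to 0.050. Beyond the scaling and the missing library, the cause was not tested. Psmg3 rests on 18 to 55 reads, so counting error is largest for it among the tested members.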
